A study of Homo sapiens with 4 samples.

Results

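The 10 genes described here, SLPI, WFDC2, PIGR, CXCL17, AGR2, FDCSP, FAM3D, LYPD2, C6orf15 and CFB, encode mostly secreted products of mucosal and glandular epithelium and are referred to as the mucosal defence secretory genes. They were taken by symbol from the 4000 genes of the deposited expression tables, and all 10 were found. The set was proposed with ratios of these same cells in view, and SLPI, WFDC2, CFB, FDCSP, FAM3D, PIGR and AGR2 stand on the study's own list of SCLED genes, which was made from these cells. All differences between groups or states below are therefore descriptions of these cells and carry no test. The cells were SUM149 cells, an established triple negative breast cancer cell line of inflammatory origin, grown as xenograft tumors in immunodeficient NSG mice aged 6 weeks and measured by droplet scRNAseq in 4 pools. Every cell carried a lentiviral shRNA after puromycin selection, either the control shRNA (shCON) or an shRNA against CD9 (shCD9), a tetraspanin of the cell surface. Which shCD9 construct was injected is not given in the sources used here. From 14 days after injection, mice received vehicle or the BET bromodomain inhibitor JQ1 at 25 mg/kg daily for 30 days. The 4 groups were shCON with vehicle (2272 cells), shCON with JQ1 (3794 cells), shCD9 with vehicle (2454 cells) and shCD9 with JQ1 (5199 cells).

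Mucosal surfaces are protected by a layer of secreted proteins. Antiproteases of the whey acidic protein (WAP) family, here SLPI and WFDC2, restrain or resemble inhibitors of serine proteases, and SLPI blocks neutrophil elastase. PIGR carries polymeric immunoglobulin through epithelial cells into secretions. CXCL17 is a mucosal chemokine, and CFB supplies the protease of the alternative complement convertase. AGR2 is a protein disulfide isomerase of the endoplasmic reticulum that is needed for mucin production. FAM3D is a cytokine-like protein of the gut epithelium, FDCSP a small secreted peptide of follicular dendritic cells and of gingival epithelium, and LYPD2 a member of the Ly6 family of small disulfide-rich proteins. C6orf15 lies in the psoriasis susceptibility region of the major histocompatibility complex and has no function that is well established. On GRCh38 (GENCODE), SLPI lies at chr20:45252239-45254564 (- strand), WFDC2 at chr20:45469753-45481532 (+ strand), PIGR at chr1:206928522-206946466 (- strand), CXCL17 at chr19:42428278-42442946 (- strand), AGR2 at chr7:16791811-16833433 (- strand), FDCSP at chr4:70226124-70235252 (+ strand), C6orf15 at chr6:31111223-31112575 (- strand) and CFB at chr6:31945650-31952086 (+ strand). The assay tags the 3′ ends of transcripts, and reads in exons and introns were counted, so values belong to whole genes and not to isoforms. In the breast, several of these genes are expressed in luminal progenitor cells of the secretory lineage.

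Levels are given as UMIs per 1000000 UMIs of the same cells (CPM), with exact Poisson 95% intervals where shown, and comparisons as log2 ratios of CPM with the conditional binomial 95% interval in parentheses. These intervals cover counting error only. No tumor is named in the cell tables, and each group was counted as 1 sample with no replicate check. All cells of pools 1 and 2 were shCD9 and all of pools 3 and 4 shCON, so line and pool cannot be told apart. Vehicle and JQ1 cells were present in each pool, and 15 cell barcodes were shared between pools. Median total UMIs of a cell were lower in shCD9 (12605 with JQ1 and 13609 with vehicle) than in shCON (17832 and 18646), and the median share of UMIs on mitochondrial genes was higher (8.49% and 7.94% against 5.78% and 6.01%). Of the cell type markers, 8 of 10 breast epithelial genes were in the tables and summed to 6969.7 to 9088 CPM over the groups. All 7 markers of luminal secretory progenitors were present, with summed levels of 1225 to 1431 CPM in shCON and 3867 to 4348 CPM in shCD9, of which LCN2 (2433 CPM over all cells) and KRT15 (255 CPM) made up most. KIT had 34.7 CPM, and ELF5, LTF, ALDH1A3 and PROM1 0.283 to 9.21 CPM. The fibroblast list (6 of 7 in the tables) summed to 70.7 to 76.0 CPM in shCON and 193 to 225 CPM in shCD9, and the leukocyte list (4 of 8) to 28.1 to 29.2 and 19.99 to 24.9 CPM. Endothelial genes (2 of 4) summed to 4.16 to 4.35 CPM in shCON and 10.6 to 16.2 CPM in shCD9, with 2320 UMIs of KDR and 15 of CDH5 in all, and erythroid genes (2 of 3) to 0.538 to 1.35 CPM. No marker in the tables was at 0. In the fibroblast list, DCN and PDGFRA were at 0.675 and 0.687 CPM. The sums for fibroblasts, endothelium and luminal progenitors moved with the line as most members did, and their part in the values below was not tested. NSG hosts lack mature lymphocytes and keep other innate immune cells. No cell type lacking the members was at hand, so UMIs from free RNA in the droplets were not measured. The knockdown itself was not checked, as CD9 was not analysed here.

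A gene was called in a comparison when its ratio over all cells passed 1.5-fold, each pool contrast had the same direction, and at least 100 UMIs were counted over both groups. In shCD9 against shCON cells, 8 of the 10 members were called higher and 0 lower with vehicle, where 20.4% of all genes with enough UMIs were called higher and 11.4% lower. With JQ1, 9 were called higher and 1, FDCSP, lower, against backgrounds of 26.2% and 20%. With JQ1 against vehicle, shCON cells had 1 member called higher (FDCSP) and 3 lower (AGR2, FAM3D and C6orf15), with 8.65% of genes called higher and 7.15% lower. In shCD9 cells the same contrast had 5 members called higher (PIGR, CXCL17, FDCSP, LYPD2 and C6orf15) and 0 lower, against 4.37% and 7.05%. The median log2 ratio of the members was 1.26 and 2.20 in the comparisons of the lines with vehicle and JQ1, where the medians of all genes tested were 0.06 and 0.04. It was -0.31 and 0.67 for JQ1 in shCON and shCD9, with medians of all genes of -0.04 and -0.01. The members were chosen on ratios of this kind, so nothing is read from the distance between these counts and their backgrounds. The comparisons share groups with each other and are not separate evidence.

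**Figure D1:**
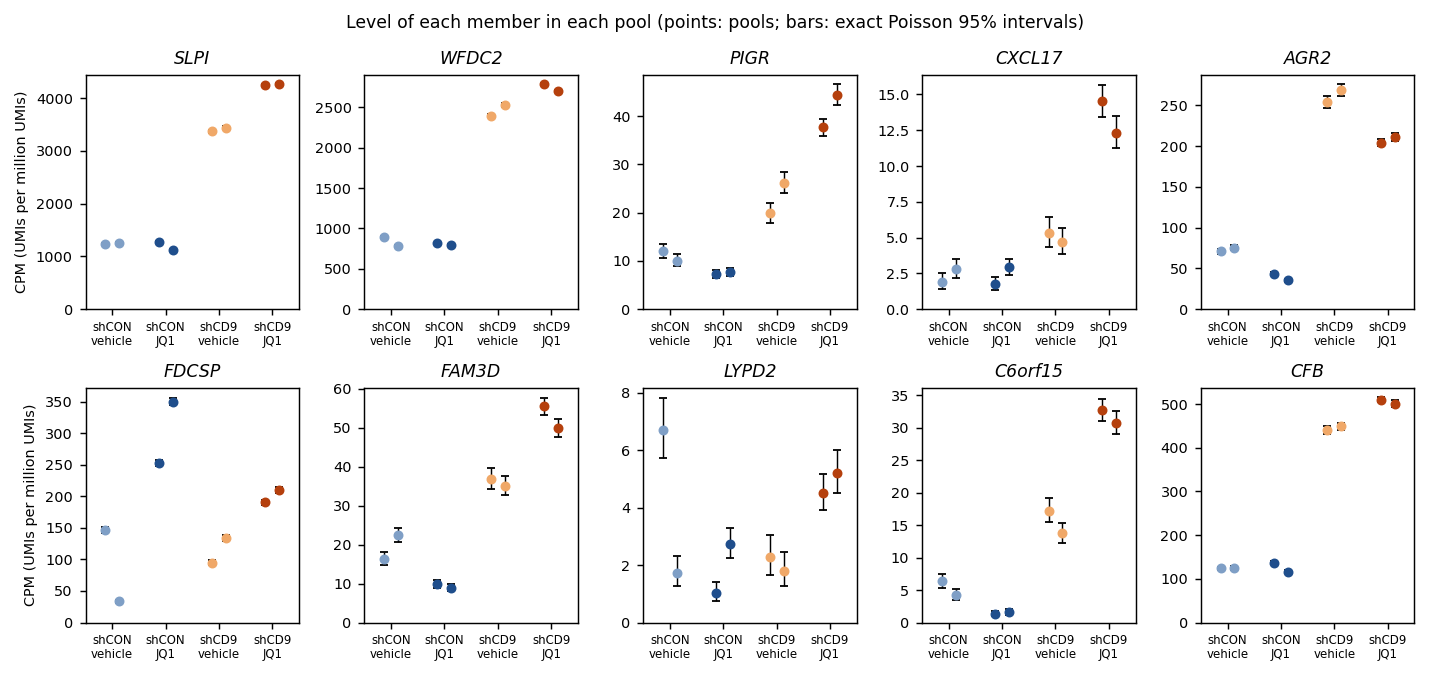
Level of the 10 mucosal defence secretory genes in each pool (y axis, CPM, from 0) by line and treatment (x axis); points are pools 3 and 4 for shCON and pools 1 and 2 for shCD9, and bars are exact Poisson 95% intervals. SLPI stood between 1128 and 1274 CPM in the shCON pools and between 3371 and 4269 CPM in the shCD9 pools, whereas the pools of shCON with vehicle lay far apart for FDCSP and LYPD2.

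The antiproteases SLPI and WFDC2 were the most widely detected members and differed more between the lines than with JQ1. SLPI, the elastase inhibitor, had 1236 and 1264 CPM in pools 3 and 4 of shCON with vehicle and 1274 and 1128 CPM with JQ1. In shCD9 it had 3371 and 3441 CPM in pools 1 and 2 with vehicle and 4255 and 4269 CPM with JQ1. Every shCD9 value lay above every shCON value. The log2 ratio of shCD9 to shCON was 1.45 (1.43 to 1.46) with vehicle and 1.83 (1.82 to 1.84) with JQ1. With JQ1 against vehicle the log2 ratio was -0.06 in shCON, with pools on both sides of 0, and 0.32 in shCD9, and neither was called. At least 1 SLPI UMI was found in 95.3% of all cells, and in 82.7% after each cell had been thinned to 4000 UMIs.

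WFDC2, which encodes the epididymal secretory protein HE4, had 890.1 and 785 CPM in the pools of shCON with vehicle and 815 and 797 CPM with JQ1. In shCD9 its levels were 2396 and 2529 CPM with vehicle and 2789 and 2701 CPM with JQ1. The lines did not overlap here either, with log2 ratios of 1.56 (1.54 to 1.58) with vehicle and 1.77 (1.76 to 1.78) with JQ1. JQ1 went with log2 ratios of -0.05 in shCON and 0.16 in shCD9, both under the threshold.

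CFB, the complement protease, was distributed over the groups much as SLPI was. It had 124 and 125 CPM in shCON with vehicle, 137 and 116 CPM in shCON with JQ1, 441 and 449 CPM in shCD9 with vehicle, and 510.2 and 501 CPM in shCD9 with JQ1. The log2 ratio between the lines was 1.84 (1.79 to 1.88) with vehicle and 2.00 (1.97 to 2.03) with JQ1. With JQ1 the ratio was 0.02 in shCON, with pools from -0.11 to 0.14, and 0.19 in shCD9, and CFB was called in neither. Because CFB and C2 overlap on the same strand of chromosome 6, reads at the shared end could belong to either gene, and C2 had 339 UMIs in all against 76876 for CFB.

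CFB and FAM3D are shown with the sequence around their start sites, since with SLPI they form the 3 pairs of members with the highest mean r across cells, as described further on. Each window runs from 250 bases before to 50 bases after the RefSeq start site (GRCh38.p14), in the 5′ to 3′ direction of the gene, and capitals mark the motifs searched. The CFB window is chr6:31945845-31946144 on the plus strand and lies inside the GENCODE span of CFB. The FAM3D window is chr3:58666725-58667024 on the minus strand and overlaps the start of FAM3D, chr3:58633946-58666834 (- strand).
CFB: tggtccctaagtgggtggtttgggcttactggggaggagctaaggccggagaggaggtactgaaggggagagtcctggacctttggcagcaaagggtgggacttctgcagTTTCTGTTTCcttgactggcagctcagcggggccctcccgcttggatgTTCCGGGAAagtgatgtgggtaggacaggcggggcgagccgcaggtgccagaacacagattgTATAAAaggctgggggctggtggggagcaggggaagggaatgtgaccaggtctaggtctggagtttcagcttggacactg
FAM3D: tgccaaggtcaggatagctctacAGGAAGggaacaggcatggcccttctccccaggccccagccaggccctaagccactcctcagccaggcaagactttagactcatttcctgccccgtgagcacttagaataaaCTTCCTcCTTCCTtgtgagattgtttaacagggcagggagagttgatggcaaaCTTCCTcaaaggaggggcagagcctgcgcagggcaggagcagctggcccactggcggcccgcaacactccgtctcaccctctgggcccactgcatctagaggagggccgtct
In the CFB window the capitals mark, in order, a match to the interferon response motif, here GAAA, any 2 bases and GAAA, on the opposite strand at base -140 from the start site, a match to TTCNNNGAA at -92, which reads alike on both strands, and TATAAA at -30. In the FAM3D window they mark 4 matches to the ETS family core AGGAAG, 1 on the gene's strand at -227 and 3 on the opposite strand, at -115, -108 and -62. Windows were at hand for 7 of the 10 members, not for SLPI, FDCSP and LYPD2. AGGAAG occurred on either strand in 5 of the 7 (PIGR, CXCL17, AGR2, FAM3D and C6orf15) and in 33.7% of the 27305 windows of all genes. The interferon response motif, TTCNNNGAA and TATAAA occurred in CFB alone among the 7 and in 3.65%, 7.88% and 11.95% of all windows. The NF-κB motif, searched as GGG, any 2 bases and TTTCC, occurred in 0 of the 7 and in 1.92% of all windows. Both strands were searched for each motif, and the capitals of different motifs do not overlap in these windows. A match describes the letters only and is not a measured binding site.

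PIGR and CXCL17, the immunoglobulin transporter and the mucosal chemokine, were called higher with JQ1 in shCD9 and not in shCON. PIGR had 11.97 and 10.1 CPM in the pools of shCON with vehicle and 7.31 and 7.64 CPM with JQ1, so the JQ1 pools were the lower ones. In shCD9 the JQ1 pools were the higher ones, with 37.7 and 44.5 CPM against 19.9 and 26.2 CPM with vehicle. With JQ1 against vehicle the log2 ratio was -0.56 (-0.73 to -0.39) in shCON, just short of 1.5-fold, and 0.81 (0.71 to 0.92) in shCD9. Over both pools PIGR had 11.02 CPM (10.12 to 11.98) and 7.48 CPM (6.89 to 8.10) in shCON and 23.2 CPM (21.8 to 24.7) and 40.8 CPM (39.4 to 42.2) in shCD9. The ratio between the lines was 1.08 with vehicle and 2.45 with JQ1. CXCL17 was sparse, with 1632 UMIs in all. It had 1.90 and 2.80 CPM in shCON with vehicle and 1.76 and 2.93 CPM with JQ1, so the pools differed more from each other than the treatments did (log2 ratio -0.00396, -0.34 to 0.34). In shCD9 it stood at 5.31 and 4.71 CPM with vehicle and at 14.5 and 12.3 CPM with JQ1, a log2 ratio of 1.44 (1.22 to 1.66). The line ratios of CXCL17 were 1.08 with vehicle and 2.52 with JQ1. Whether the JQ1 ratios differ between the lines was not tested for either gene.

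AGR2 and FAM3D, the disulfide isomerase and the cytokine-like protein, were both lower with JQ1 in shCON. AGR2 had 71.1 and 75.6 CPM in shCON with vehicle and 43.6 and 35.3 CPM with JQ1, a log2 ratio of -0.90 (-0.97 to -0.83). In shCD9 it had 254 and 269 CPM with vehicle and 204 and 211 CPM with JQ1, a ratio of -0.34 that was not called. AGR2 was the 1 member that was lower with JQ1 in each pool of both lines. AGR2 thus kept a level above all shCON pools in each shCD9 pool. Between the lines the log2 ratio was 1.84 with vehicle and 2.39 with JQ1. FAM3D had 16.3 and 22.4 CPM in shCON with vehicle and 9.88 and 8.98 CPM with JQ1, a log2 ratio of -1.04 (-1.18 to -0.90). In shCD9 the values were 36.9 and 35.0 CPM with vehicle and 55.5 and 49.8 CPM with JQ1, a ratio of 0.56 (0.47 to 0.64), short of 1.5-fold. The FAM3D ratio between the lines was 0.89 with vehicle and 2.49 with JQ1.

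C6orf15 had the widest range between groups among the members. Its level was 6.35 and 4.26 CPM in shCON with vehicle and 1.39 and 1.59 CPM with JQ1. In shCD9 it was 17.2 and 13.8 CPM with vehicle and 32.8 and 30.8 CPM with JQ1. No pool of one group overlapped those of another. With JQ1 the log2 ratio was -1.83 (-2.16 to -1.51) in shCON and 1.05 (0.92 to 1.18) in shCD9, of opposite direction, and the line ratio was 1.54 with vehicle and 4.42 (4.16 to 4.70) with JQ1. Over both pools the level ran from 1.49 CPM (1.23 to 1.78) in shCON with JQ1 to 31.9 CPM (30.6 to 33.1) in shCD9 with JQ1. That contrast is 21.4-fold and rests on 2632 UMIs against 119.

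FDCSP and LYPD2 did not follow the line in the way of the other members, and their UMIs came from few cells. FDCSP had 146 and 33.7 CPM in the pools of shCON with vehicle, 253 and 349.7 CPM in shCON with JQ1, 94.97 and 134 CPM in shCD9 with vehicle, and 191 and 210.1 CPM in shCD9 with JQ1. JQ1 pools were higher than the vehicle pools of the same line. The log2 ratio was 1.76 in shCON, 0.79 in pool 3 alone and 3.37 in pool 4 alone, and 0.79 in shCD9, with pools from 0.65 to 1.01. Between the lines it was 0.38 with vehicle, with pool contrasts from -0.62 to 1.99, and -0.60 with JQ1. The latter is only just past 1.5-fold and was 0.01 on the mean of normalized values. LYPD2 had 846 UMIs in all. It stood at 6.72 and 1.74 CPM in shCON with vehicle, 1.03 and 2.73 CPM in shCON with JQ1, 2.27 and 1.79 CPM in shCD9 with vehicle and 4.51 and 5.22 CPM in shCD9 with JQ1. In shCON the pools went opposite ways with JQ1 (log2 ratios from -2.70 to 0.65), and in shCD9 both were higher (1.26, 0.92 to 1.62). Without pool 3 the line ratio of LYPD2 with JQ1 was 0.83, and without pool 4 it was 2.23, where both pools together gave 1.36.

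**Figure D2:**
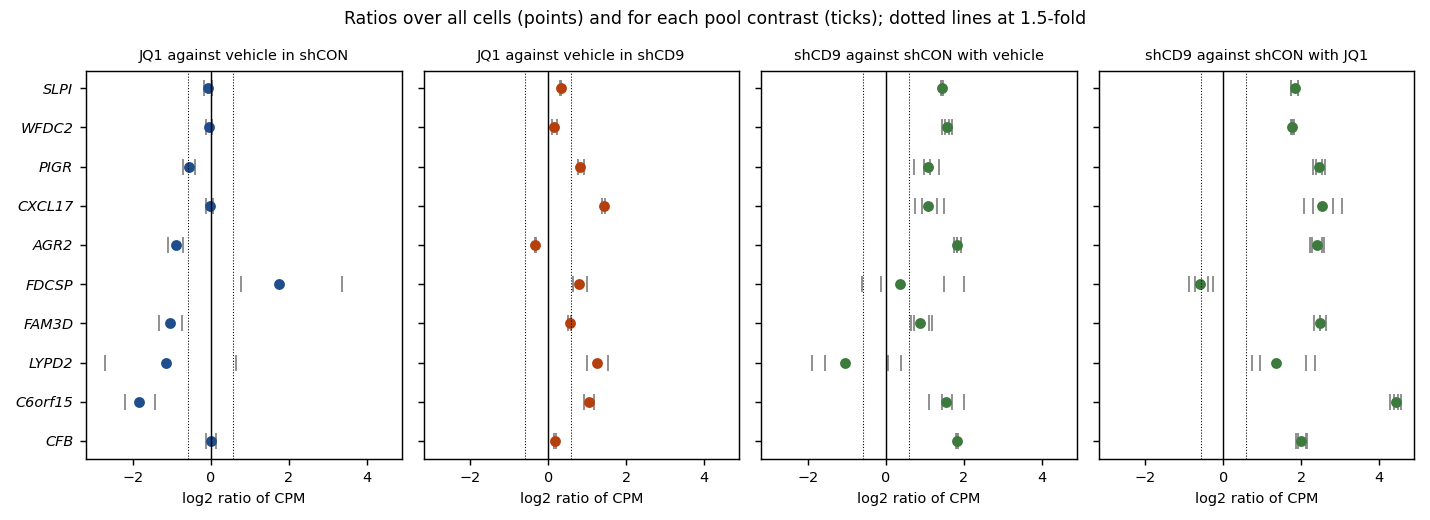
Log2 ratios of CPM (x axis) of the 10 members (rows) in the 4 comparisons; points are ratios over all cells, grey ticks are the pool contrasts (2 for JQ1 against vehicle, 4 for shCD9 against shCON), and dotted lines mark 1.5-fold. With JQ1 the C6orf15 point lies at -1.83 in shCON and 1.05 in shCD9, and the ticks of FDCSP and LYPD2 spread widest where shCON with vehicle is involved.

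The study had sorted the xenograft cells into 4 labels with scPred, a classifier trained on SUM149 cells in culture. The label 4_2 is called SCLED (stem cell-like and embryonic diapause) here, although the cell-line cluster that the study named SCLED is its cluster 4.1. Cluster 9 is the study's transitional state, cR its resistant clusters, and the rest are unassigned. The labels were given from the expression of the same cells, so levels by state describe the labels. SCLED cells made up 130 of 2272 cells in shCON with vehicle (5.72%), 129 of 3794 in shCON with JQ1 (3.40%), 555 of 2454 in shCD9 with vehicle (22.6%) and 1630 of 5199 in shCD9 with JQ1 (31.4%). Their median mitochondrial share was 9.25%, against 4.67% in cluster 9, 7.01% in cR and 6.62% in unassigned cells. Whether this share bears on the levels by state was not tested.

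Over the pools of a group together, 8 of the 10 members had their highest level in SCLED cells in all 4 groups, as did 22.1% of all genes with enough UMIs. The exceptions were FDCSP, highest in cluster 9 in all 4 groups, and CXCL17, highest in cluster 9 in both shCON groups. In the 8 strata of pool and treatment taken singly, SLPI, PIGR, FAM3D, C6orf15 and CFB were highest in SCLED cells in 8 of 8. LYPD2 and AGR2 were highest there in 7 of 8, CXCL17 in 6, WFDC2 in 5 and FDCSP in 3. The share of all genes was not counted for single strata, so these counts have no background. AGR2 had 177 CPM in cluster 9 against 111 CPM in SCLED cells in pool 3 of shCON with vehicle, where cluster 9 held 13 cells. Over all groups, SLPI had 9372 CPM in SCLED, 3025 in cluster 9, 979 in cR and 1214 in unassigned cells. CFB had 1305, 346, 64.1 and 105 CPM in the same order of states, and SCLED cells exceeded cR cells 15.2-fold to 21.1-fold over the 4 groups. PIGR had 97.7 CPM in SCLED cells and 5.09, 3.59 and 7.64 CPM in the others. FAM3D had 141 CPM in SCLED cells, 1.70 CPM in cluster 9, where 11 UMIs were counted in 328 cells, and 4.75 and 9.11 CPM in cR and unassigned cells. C6orf15 stood at 66.4 CPM in SCLED cells and at 1.70, 5.01 and 3.23 CPM elsewhere, and LYPD2 at 15.5 CPM and 2.47, 0.513 and 0.959 CPM. AGR2 was spread more evenly, with 318 CPM in SCLED cells, 68.3 in cluster 9, 91.4 in cR and 108 in unassigned cells. In shCD9 with JQ1 its SCLED level was only 1.72-fold the cR level. WFDC2 had 4721 CPM in SCLED and 1439.7, 749 and 1298 CPM in the other states, but the contrast with cluster 9 was that of shCD9. In shCON its SCLED and cluster 9 levels were 1100.4 and 1059.9 CPM with vehicle (log2 ratio of cluster 9 to SCLED -0.05, -0.20 to 0.09) and 1609 and 1391 CPM with JQ1. In pool 3 cluster 9 was the higher in both treatments (1961 against 1337 CPM and 1905 against 1359 CPM). Unassigned cells of shCON had 1044 CPM of WFDC2 with vehicle and 856 CPM with JQ1. In pool 4 with vehicle they exceeded SCLED cells (979 against 846 CPM). The SCLED cells, 17.8% of cells with 16.9% of all UMIs, held from 34.5% (FDCSP) to 79.6% (FAM3D) of a member's UMIs.

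FDCSP in cluster 9 had 1251 CPM in shCON with vehicle (22 cells), 1836 CPM in shCON with JQ1 (197 cells), 1415 CPM in shCD9 with vehicle (52 cells) and 575 CPM in shCD9 with JQ1 (57 cells). Outside shCON with JQ1, where pools 3 and 4 had 1423 and 2229 CPM, each of these values came mostly from 1 pool. Pools 3 and 4 of shCON with vehicle had 2400.4 and 68.9 CPM, pools 1 and 2 of shCD9 with vehicle 0 (0 UMIs in 15 cells) and 1995 CPM, and those of shCD9 with JQ1 987 and 5.91 CPM. In the low pool of each of these groups, SCLED cells had more FDCSP than cluster 9, with 122, 242 and 553 CPM. At least 1 FDCSP UMI was found in 36.4% and 31.5% of the cluster 9 cells in shCON and in 9.62% and 7.02% of those in shCD9. In SCLED cells its level was 269.6, 256, 258 and 481 CPM in the same order of groups. In unassigned cells FDCSP was higher in shCON, with 108 CPM against 17.2 CPM in shCD9 with vehicle and 306 CPM against 34.6 CPM with JQ1. For CXCL17, cluster 9 of shCON held 14 UMIs with vehicle and 91 with JQ1, and the interval of its ratio to SCLED cells included 0 on the log2 scale in both. Pool 4 alone had more CXCL17 in cluster 9, and in pool 3 it was lower there than in SCLED cells (9.56 against 15.5 CPM with vehicle and 6.48 against 22.1 CPM with JQ1). In cluster 9 of shCD9 it had 0 UMIs with vehicle and 2 with JQ1.

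**Figure D3:**
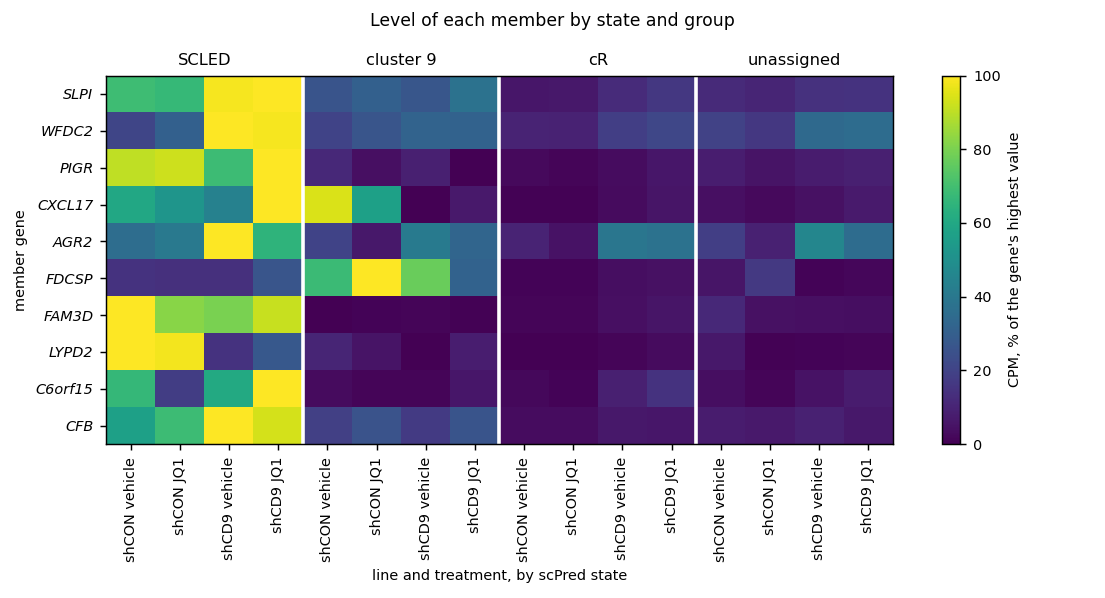
Level of each member (rows) by scPred state and group (columns), as a percentage of the gene's highest value among the 16 columns; the colour scale runs from 0 to 100%. The highest value of 9 members lies in an SCLED column and that of FDCSP in cluster 9, and WFDC2 is near its highest value only in the SCLED columns of shCD9.

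Within a state, the members differed between the lines to unequal extents, and several did not follow the ratio over all cells. In SCLED cells, WFDC2 had 1337 and 846 CPM in the shCON pools with vehicle against 5428 and 5106 CPM in the shCD9 pools, and 1359 and 1928 against 5232 and 5123 CPM with JQ1. Its log2 ratios there were 2.26 (2.20 to 2.31) and 1.69 (1.64 to 1.73). AGR2 was also higher in shCD9 SCLED cells in each pool contrast, with log2 ratios of 1.48 with vehicle and 0.68 with JQ1. CFB (0.81 and 0.45) and SLPI (0.52 and 0.58) had smaller ratios, all above 0 in each pool contrast. PIGR and FAM3D were not set apart by line within SCLED cells. PIGR had log2 ratios of -0.39 and 0.12, with pool contrasts on both sides of 0 in each treatment, and FAM3D -0.32 and 0.15, likewise. C6orf15 differed by treatment, with -0.13 with vehicle and 2.48 (2.01 to 2.98) with JQ1. LYPD2 went the other way, with -2.76 and -1.84, but pool 3 of shCON with vehicle had 87.6 CPM and pool 4 2.28 CPM. All 10 members had at least 100 UMIs in SCLED cells in each comparison. By the same rule of calls, 3 members were called higher and 0 lower in shCD9 with vehicle (background 20.5% and 15.1%), and 5 higher and 1 lower with JQ1 (background 21.5% and 22.5%).

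In cR cells with JQ1, 8 members were called higher in shCD9 than in shCON and 0 lower, where 22.4% of genes were called higher and 17.2% lower. CXCL17 and LYPD2 had under 100 UMIs. The log2 ratio was 1.34 for SLPI, 1.14 for WFDC2, 0.93 for CFB, 2.95 for AGR2 and 2.36 for FDCSP. For PIGR it was 2.08, for FAM3D 2.17 and for C6orf15 3.72, the last from 261 UMIs against 21. CXCL17 had 45 UMIs against 5 and LYPD2 31 UMIs against 2. With vehicle, 5 members were called higher in cR cells (SLPI, WFDC2, AGR2, FAM3D and CFB) and 0 lower, against 11.6% and 14.5% of genes. FDCSP had 6.59 and 27.2 CPM in the shCON pools and 144 and 9.99 CPM in the shCD9 pools, which overlap. PIGR, CXCL17, LYPD2 and C6orf15 had under 100 UMIs there, and the pools of PIGR overlapped too. In unassigned cells with JQ1 the ratio was 1.11 for WFDC2, 1.96 for AGR2 and 2.44 for C6orf15, but -0.06 for CFB and -0.23 for FAM3D, with pool contrasts on both sides of 0 for the last pair.

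When the levels by state were averaged with the state shares of all cells, so that each group had the same mix of states, the line ratio with JQ1 went from 1.83 to 0.65 for SLPI, from 2.00 to 0.39 for CFB, from 2.45 to 0.30 for PIGR and from 2.49 to 0.21 for FAM3D. WFDC2 went from 1.77 to 1.31, AGR2 from 2.39 to 1.64 and C6orf15 from 4.42 to 2.62. With vehicle, PIGR (-0.29), CXCL17 (-0.46) and FAM3D (-0.45) turned to the other direction at the same mix, whereas WFDC2 (1.27), AGR2 (1.49), CFB (0.69) and SLPI (0.50) kept theirs. In shCON the SCLED term of this average rests on 130 and 129 cells.

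**Figure D4:**
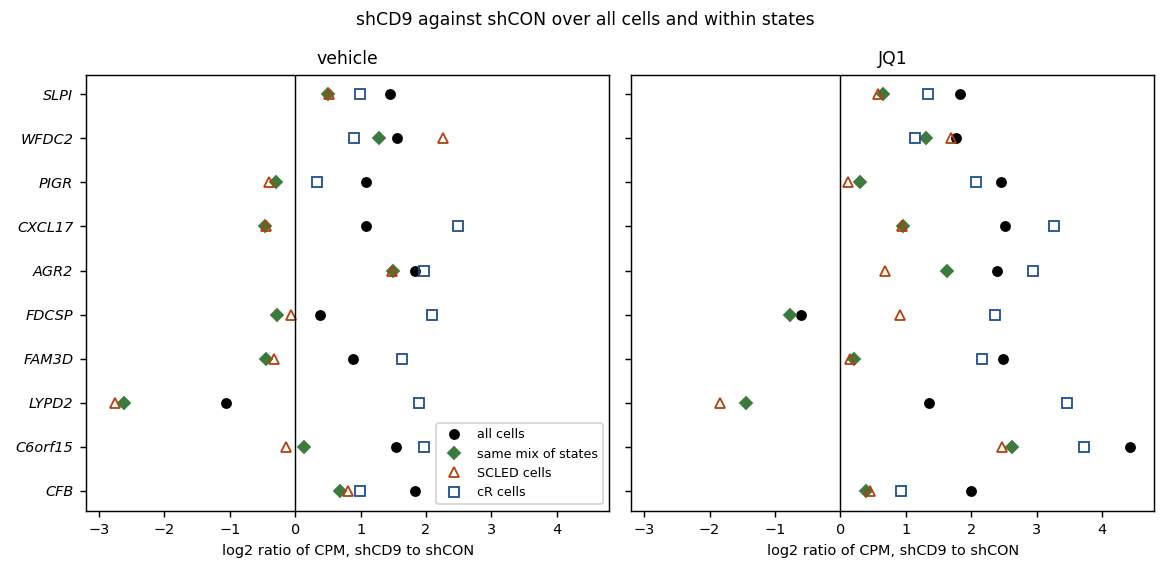
Log2 ratio of CPM of shCD9 to shCON (x axis) of the 10 members (rows) with vehicle and JQ1; filled circles are all cells, diamonds the same mix of states, triangles SCLED cells and squares cR cells, with counts under 3 UMIs set to 3. For PIGR and FAM3D the triangles and diamonds lie between -0.45 and 0.30, whereas all marks of WFDC2 and AGR2 lie above 0.

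The JQ1 contrast was also read within states. In SCLED cells of shCD9, CXCL17 (1.19), FDCSP (0.90), LYPD2 (0.89) and C6orf15 (0.72) were called higher with JQ1 and AGR2 (-0.62) lower, where 3.06% of genes were called higher and 10.2% lower. PIGR was higher in both pools at 0.54, short of 1.5-fold, and SLPI (0.02), WFDC2 (-0.02) and CFB (-0.10) differed little. In SCLED cells of shCON, 1 member was called, C6orf15, lower with JQ1 (-1.89, -2.45 to -1.37), with backgrounds of 11.1% higher and 7.69% lower. There, AGR2 (0.18), PIGR (0.03), FDCSP (-0.07) and LYPD2 (-0.03) had pools on both sides of 0. AGR2 was lower with JQ1 in shCON cR cells (-1.05, from 45.9 to 22.1 CPM) and in unassigned cells (-1.04), in both pools of each. FAM3D with JQ1 in shCON was -1.37 in unassigned cells and -0.28 in SCLED cells.

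The members differed widely in how their UMIs were spread over cells. Ranked from the cell with the most, 50% of the UMIs of WFDC2 came from 8.74% of the 13719 cells, and 50% of those of SLPI from 7.23%. The same share came from 4.42% of cells for CFB, 3.62% for AGR2, 1.95% for FAM3D, 1.73% for C6orf15, 1.37% for PIGR and 1.11% for CXCL17. FDCSP had 50% of its 49970 UMIs in 40 cells and LYPD2 50% of its 846 in 13 cells. In a single pool and treatment, 2 to 11 cells held 50% of the FDCSP UMIs and 1 to 12 cells 50% of the LYPD2 UMIs. In shCON with vehicle, 1 cell of pool 3 had 1185 FDCSP UMIs, 32.8% of that gene's UMIs in the pool, and in pool 4 of shCON with JQ1 1 cell had 69 of the 110 LYPD2 UMIs. The levels of both genes in a pool therefore rest on single cells, which the Poisson intervals do not cover. The share of cells with at least 1 FDCSP UMI ranged only from 7.74% in shCD9 with vehicle to 11.4% in shCON with JQ1. After thinning it was 2.86% and 3.83% in the vehicle groups and 6.01% and 6.27% with JQ1. Without the 1% of cells of each group with the highest share of their UMIs on FDCSP, the JQ1 ratio in shCON was 3.94.

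Members were also counted per cell at the thinned depth. At least 5 of the 10 were detected in 37.8% of the 2185 shCD9 SCLED cells and 17.8% of the 259 shCON SCLED cells. In the other states of either line the share was 2.04% or less. The mean number detected was 4.21 in shCD9 SCLED and 3.60 in shCON SCLED cells, and 5.42 and 4.83 before thinning. In cR cells it was 2.22 in shCD9 and 1.56 in shCON.

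Covariation was taken as Pearson's r of log(1 + UMIs per 10000) over cells, as the mean of 8 strata of pool and treatment (13719 cells), and has no p, since cells share their library and depth. The median r of the 45 pairs of members was 0.146, with a range from -0.02 to 0.59. SLPI and CFB varied together most (0.59), followed by SLPI and FAM3D (0.42), FAM3D and CFB (0.41) and SLPI and WFDC2 (0.37). These values differed by line. SLPI and WFDC2 had 0.22 in shCON and 0.52 in shCD9, FAM3D and CFB 0.28 and 0.53, SLPI and FAM3D 0.36 and 0.48, and SLPI and CFB, the highest pair in both, 0.51 and 0.66. In shCON PIGR and FAM3D (0.30) came before FAM3D and CFB, and in shCD9 FAM3D with CFB and SLPI with WFDC2 came before SLPI with FAM3D. AGR2 and WFDC2, both widely detected, had an r of 0.02. Pairs with FDCSP, LYPD2 or CXCL17 rest on sparse counts, and nothing is read from their low r. The summed UMIs of the members were mostly those of SLPI (654175) and WFDC2 (437252), with 846 to 76876 for each other member. The genes most like this sum were LCN2, an iron-binding antimicrobial lipocalin (0.66), and PI3, the elastase inhibitor elafin (0.66). PI3 and LCN2 were also the 2 genes most like SLPI alone (0.75 and 0.68). They were followed by FOLR1, PDZK1IP1, RARRES1, PLAAT3, PRKAR2B, the epithelial ETS factor EHF, SLC4A11 and ELF3, another epithelial ETS factor, with r from 0.56 to 0.49. For single members the most similar genes were PI3 for SLPI (0.75), LCN2 for CFB (0.60), PSCA for FAM3D (0.46), FOLR1 for PIGR (0.36) and TNFRSF11B for AGR2 (0.39).

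**Figure D5:**
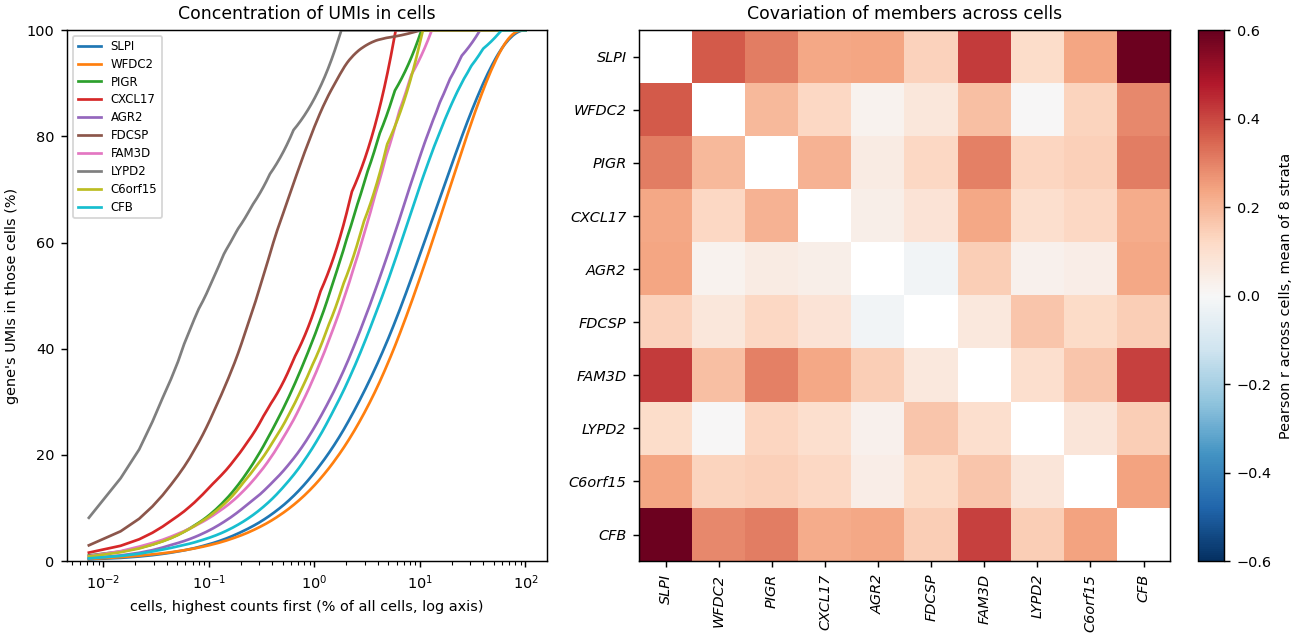
Left, cumulative share of each member's UMIs (y axis, %) against the share of cells (x axis, %, log scale), cells with the highest counts first; right, mean Pearson r over 8 strata of pool and treatment for the 45 pairs of members. The curves of FDCSP and LYPD2 lie furthest to the left, and the darkest cell of the grid is SLPI with CFB (0.59).

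Some of the most similar genes were also neighbours on the chromosome. On chromosome 20, PI3 lies 75.7 kb and WFDC2 215 kb from SLPI. Other WAP genes of that cluster had lower r with SLPI, 0.12 for WFDC3, 0.12 for WFDC12, 0.11 for WFDC6, 0.09 for EPPIN and 0.04 for WFDC5, at 244 to 1593 UMIs each. LYPD2 lies among other Ly6 genes, and its r was 0.39 with SLURP2, 11.8 kb away, 0.35 with SLURP1, 7.74 kb away, 0.21 with PSCA and 0.19 with LY6D. These 4 were the 4 genes of highest r with LYPD2 among 3999. FDCSP was most like ODAM (0.31), 21.5 kb away, which had 324 UMIs. The UMIs of LYPD2 and FDCSP came mostly from few cells, so their r and ranks rest on few cells too. For AGR2, AHR (82.9 kb away) had an r of 0.39, SOSTDC1 0.26 and TSPAN13 0.24. Neighbours of PIGR, CXCL17, FAM3D and CFB within 1 Mb were not among the 20 genes most like them. CFB had 25 such neighbours, the most of any member, and C1orf116 ranked 21 for PIGR (0.25). The genes nearest to PIGR among the 4000 in the tables, the interleukins IL24 and IL20, had r of -0.01 and -0.01. IL24 was higher with JQ1 in shCON (2.01) and lower in shCD9 (-0.89), opposite in direction to PIGR in each line.

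Other genes of the same pathways were read by the same rule of calls. Between the lines, 20.4% of all genes tested were called higher and 11.4% lower with vehicle, and 26.2% and 20% with JQ1. For JQ1 against vehicle the shares were 8.65% and 7.15% in shCON and 4.37% and 7.05% in shCD9. These shares are the background of every list below, and the lists were written with earlier results of these data known. Of the 19 secreted antiproteases listed, 15 were in the tables, and 2 higher and 2 lower of 14 tested were called in shCD9 against shCON with vehicle and 3 higher and 5 lower of 15 tested with JQ1, with median log2 ratios of 0.07 and 0.05. The squamous serpins SERPINB4 (1.23) and SERPINB3 (0.87) were higher in shCD9 with vehicle, and WFDC12 (-1.39) and SERPINA1 (-1.30), the plasma elastase inhibitor, lower. The median of the list thus lay near that of all genes, unlike SLPI and WFDC2. With JQ1, 4 higher and 2 lower of 15 tested were called in shCON and 1 higher and 1 lower of 15 tested in shCD9.

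Antimicrobial and mucus genes (31 of 38 in the tables) gave 12 higher and 1 lower of 21 tested in shCD9 against shCON with vehicle (median 0.82) and 8 higher and 7 lower of 23 tested with JQ1 (median 0.34). With vehicle LCN2 (1.87), RARRES1 (1.67), the acute phase gene SAA2 (1.55) and the defensin DEFB1 (155 UMIs against 65) had the largest called ratios. With JQ1 they were the membrane mucin MUC4 (2.12, 126 UMIs against 28), LCN2 (1.59) and BPIFB1 (382 UMIs against 131), higher, and the calgranulin S100A12 (-1.67), lower. In shCON, JQ1 went with 13 higher and 2 lower of 22 tested (median 0.84), where 8.65% of all genes were called higher and 7.15% lower. The largest called ratios were those of haptoglobin (HP, 3.26, 214 UMIs against 14), S100A12 (1.95), CHI3L2 (1.77) and S100A8 (1.75). Of the members, FDCSP alone was called higher in that contrast. In shCD9 the list had 1 higher and 3 lower of 23 tested (median -0.10), with S100A8 (-0.73) and S100A9 (-0.78) lower.

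Complement genes (12 of 20 in the tables) were divided where CFB was higher. In shCD9 against shCON, 3 higher and 3 lower of 12 tested were called with vehicle (median -0.11) and 1 higher and 6 lower of 12 tested with JQ1 (median -0.35). C2, the classical pathway homolog of CFB, was the 1 complement gene called higher with JQ1 (2.25, 196 UMIs against 40). C2 overlaps CFB on the same strand, so some of its UMIs could come from CFB, which was not tested. The inhibitors SERPING1 (-1.79) and CFI (-1.12) and the protease C1S (-1.64) were lower. JQ1 against vehicle gave 2 higher and 1 lower of 11 tested in shCON and 1 higher and 4 lower of 11 tested in shCD9, where SERPING1 (-1.27), C3AR1 (-0.82), C1S (-0.80) and CFI (-0.74) were lower.

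Among transcription factors and cytokines known to act on such genes (22 of 31 in the tables), 6 higher and 2 lower of 19 tested were called in shCD9 with vehicle and 2 higher and 5 lower of 20 tested with JQ1. With vehicle IL1B (1.85), IL1A (1.44) and TNF (1.08) were higher and IL17C (-1.45) lower. With JQ1 the ETS factors ELF3 (1.23) and EHF (1.16) were higher, and IL6 (-2.91) lower. IL6 was higher with JQ1 in shCON (1.84) and lower in shCD9 (-1.97), and IL1B went the same ways (1.29 and -0.82). The list had 3 higher and 1 lower of 19 tested in shCON and 1 higher and 2 lower of 20 tested in shCD9. Whether the lines differ in these JQ1 ratios was not tested.

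Relatives of the members (15 of 21 in the tables) gave 5 higher and 1 lower of 15 tested in shCD9 with vehicle and 4 higher and 2 lower of 15 tested with JQ1. AGR3, the paralog of AGR2, was higher in both (2.69 and 2.41), as was PSCA, a relative of LYPD2 (1.43 and 2.34). CCL28, a mucosal chemokine like CXCL17, had a log2 ratio of 2.98 between the lines with JQ1, and with JQ1 against vehicle -1.06 in shCON and 0.82 in shCD9. The family list had 2 higher and 1 lower of 14 tested in shCON and 3 higher and 3 lower of 15 tested in shCD9 in that contrast. Of genes listed as near the members on the chromosome (12 of 28 in the tables), 6 higher and 2 lower of 11 tested were called with vehicle and 6 higher and 1 lower of 12 tested with JQ1 between the lines, and 2 higher and 0 lower of 10 tested and 5 higher and 1 lower of 11 tested for JQ1 in shCON and shCD9. CEACAM1, near CXCL17, was higher in shCD9 in both treatments (1.89 and 2.27). ODAM, beside FDCSP, was higher with JQ1 in shCON (1.85) and in JQ1-treated tumors lower in shCD9 (-3.15, 26 UMIs against 224).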

How the data were processed

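The 4 pools of xenograft cells were prepared with 10x Chromium 3′ v3.1 chemistry and hashtag oligos. UMI counting by the authors used Cell Ranger 6.0.0, introns included, and Velocyto on GRCh38. The authors removed low quality cells and doublets (Scrublet) before deposit, and assigned states with scPred. The tables they deposited hold a normalized signal: UMIs of a cell scaled to a common total of 15070, for 4000 genes that hold 28.4% of all UMIs. Which count layer was used, and how the genes were chosen, is not given in the sources used here.

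UMIs were recovered from the step of each cell. All of the 8390158 positive values were whole within 0.05 (100%). Totals of the 13719 cells ran from 4070 to 79524 UMIs. Labels give JQ1 and 8 mice per group for all pools, so line, treatment and state were read from the deposited cell tables. No count test was run, because each group is 1 sample and pools do not separate tumors. CPM use the recovered totals of cells over all genes as denominator. CPM have exact Poisson and ratios conditional binomial intervals at 95%, for counting error only. Counts under 3 UMIs were set to 3 in ratios. Members, lists and rules were chosen with earlier results of these data known. The lists name at most 4 called genes each by size of ratio; genes most like the members were the 10 of highest r, and 2 for each member. Neighbours by position (WFDC3, WFDC12, WFDC6, WFDC5, EPPIN, PSCA, LY6D, AHR, SOSTDC1, TSPAN13, C1orf116, IL24 and IL20) were named after their values were seen. For 2 genes that the rule names, the values are not reported here. Alternatives were pools left out, other denominators, means of normalized values, thinning to 4000 UMIs, the same mix of states, removal of the top 1% of cells, and no count minimum. Recovery and intervals were tested on simulated Poisson counts, with no spread between pools and none between cells beyond depth. That setting does not cover genes with UMIs in few cells, such as FDCSP and LYPD2. Positions are GENCODE 44 on GRCh38, and start site windows are from RefSeq. Scripts ran in Python 3.11.15 with pandas 2.3.3, scipy 1.17.1, numpy 2.4.6 and matplotlib 3.10.9.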

Additional observations from a re-analysis of the deposited data

Results flagged for a closer look

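For 3 genes the JQ1 ratio had opposite signs in the lines, in both pools of each. Each group is 1 sample, so this difference was not tested. How many of all genes have such opposite signs was not counted, so nothing is read from the number of members. For PIGR, the log2 ratio of JQ1 to vehicle in shCD9 less that in shCON was 1.37, with 0.81 in shCD9 and -0.56 in shCON. For FAM3D it was 1.60, with 0.56 and -1.04. For C6orf15 it was 2.88, with 1.05 and -1.83. The share of SCLED cells moved in the same directions with JQ1, from 5.72% to 3.40% in shCON and from 22.6% to 31.4% in shCD9. At the same mix of states the ratios were 0.49 and -0.10 for PIGR, 0.19 and -0.46 for FAM3D, and 0.72 and -1.77 for C6orf15.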

How the results depend on the processing

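With the same mix of states, the number of members called was 1 in place of 4 for JQ1 in shCON, 3 in place of 5 for JQ1 in shCD9, and for shCD9 against shCON 4 in place of 8 with vehicle and 7 in place of 10 with JQ1. The line ratio then changed sign with vehicle for PIGR (-0.29), CXCL17 (-0.46) and FAM3D (-0.45), and with JQ1 for LYPD2 (-1.45). FDCSP between the lines with JQ1 changed sign to 0.0082 on the mean of normalized values and to 0.0015 with thinned cells. Without the 1% of cells of each group with the highest share of their UMIs on each gene, 7 members were called for JQ1 in shCON. Beyond the construction of these alternatives, the cause was not tested. Every alternative was run on the members alone, so the counts of calls given here have no share of all genes beside them. With each pool left out in turn, the calls for JQ1 numbered 5 to 6 in shCON and 5 to 6 in shCD9, and those between the lines 8 to 9 with vehicle and 9 to 10 with JQ1. For JQ1 a single pool contrast is then left, so the rule of equal direction is always met and the counts do not measure stability. LYPD2 in shCON passed 1.5-fold in either pool alone, in opposite directions (-2.70 and 0.65). In each alternative run for the states, 10 members were past 1.5-fold higher in SCLED than in cR cells. Several members stand on the study's SCLED list made from these cells, and the share of all genes was not counted. Nothing is therefore read from this count. The median r of pairs of members was 0.146, 0.162 by Spearman's rho and 0.103 with thinned cells. Of the other comparisons of single genes with an alternative, 345 moved by less than the spread between pools, or between groups for the states, and 99 by more. Between groups, a change of sign was looked for in called ratios only, so these counts include sign changes of ratios that were not called. The 345 also include 40 without a count minimum, where the ratio could not move. No paired analysis was possible because the labels put all 4 pools in 1 group and the cell tables name no tumor, beyond the contrasts of JQ1 with vehicle within each pool that the calls already use. Low counts limit CXCL17 and LYPD2, and few cells limit FDCSP and LYPD2.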
